A study of Oryza sativa with 5 samples.

Results

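Isolated H3K4me3 islands are stretches of H3K4me3, the trimethylated lysine 4 of histone H3, in rice male meiocytes that had no other H3K4me3 region close by on either side. They were chosen by measured values, the peak positions of the 2 H3K4me3 lists. Bases covered by peaks of both lists, with touching pieces joined, gave 25715 H3K4me3 regions. Of these, 869 (3.38%) had no other such region within 25 kb of either edge on the same chromosome. The islands are set against the other 24846 regions. Of the others, 5082 had more than 25 kb free on 1 side only, and 19764 had a neighbour within 25 kb on both sides.

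H3K4me3 usually sits on the nucleosomes just downstream of the start of transcribed genes, where COMPASS-type methyltransferases deposit it. H3K27me3, the trimethylated lysine 27 of the same histone, is laid down by Polycomb repressive complex 2 over genes held silent during development. Plant chromosomes carry most of their H3K4me3 in gene-rich arms, and less of it in the gene-poor chromatin around the centromeres.

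The data came from rice (Oryza sativa) male meiocytes, the pollen mother cells that enter meiosis in the anther, taken at early prophase I. Low cell number chromatin immunoprecipitation and sequencing was done with an antibody to H3K4me3 (2 replicate libraries) and an antibody to H3K27me3 (2 replicate libraries). The labels of the 4 libraries give no treatment, cultivar, genotype or plant age. The labels call the libraries of each antibody biological replicates, each made from a small pellet of pooled cells. A further sample, an input library, was not analysed here. Each library came as a list of peaks, 29941 and 27411 for H3K4me3 replicates 1 and 2 and 19774 and 19450 for H3K27me3 replicates 1 and 2. Read depth is therefore unknown, and a site without a peak is a site that did not pass the authors' peak calling. With no gene models on the same genome build, neither a check of the cell type by marker genes nor an assignment of islands to genes was made. Spacing, width, fold enrichment and place along the chromosome come from the lists that chose the islands and are given as descriptions without a test. Only the H3K27me3 lists took no part in the choice, although the rule limits which H3K27me3 peaks can lie near an island.

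Most islands were only just out of reach of their neighbours, and a few stood much farther apart. The median distance to the nearer neighbouring region was 35.0 kb in islands, against 3.53 kb in the other regions, and the median distance to the farther neighbour of an island was 67.2 kb. In 660 islands (75.9%) the nearer neighbour lay within 50 kb. In 209 islands it lay more than 50 kb away, in 42 more than 100 kb and in 6 more than 200 kb. The 3 islands just inside the 25 kb threshold had their nearest neighbour at 25.04, 25.06 and 25.08 kb, on chromosomes 7, 2 and 3. The 3 regions just outside the threshold had theirs at 24.996, 24.97 and 24.96 kb, on chromosomes 11, 4 and 6.

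The most isolated region lay on chromosome 12 at 6168912 to 6169427. It was 516 bp wide, with 367.0 kb free on the left and 508.3 kb on the right, and its peaks stood at percentiles 69.9 and 86.9 of fold enrichment in H3K4me3 replicates 1 and 2. The second lay on chromosome 7 at 14133981 to 14134180, with 353.7 and 357.4 kb free on its sides. It was only 200 bp wide, yet its peaks stood at percentiles 98.95 and 99.8. The third, on chromosome 5 at 9847205 to 9847437, was of about the same width (233 bp) and ranked low, at percentiles 36.4 and 0.938. The most isolated regions thus included strong and weak peaks. The next 3 lay on chromosome 12 at 20375206 to 20375745 (nearest neighbour at 269.2 kb), on chromosome 4 at 2777527 to 2778008 (265.6 kb) and on chromosome 4 at 17838306 to 17838524 (248.1 kb). The remaining 4 of the 10 most isolated lay on chromosomes 4, 7, 2 and 5, with nearest neighbours at 184.1, 174.8, 172.6 and 169.9 kb.

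An island in both lists may still have peaks of 1 list near it. No H3K4me3 peak of either list, other than its own, lay within 25 kb of 432 islands (49.7%). Replicate 1 alone had further peaks within 25 kb of 310 islands, replicate 2 alone of 55, and each list of 72. In all, 487 islands had no further replicate 1 peak and 742 had no further replicate 2 peak. The remaining islands are thus isolated only as far as peaks found in both libraries go, and the H3K27me3 shares are also given for the 432 alone. Of the 10 most isolated, 9 had no further peak of either list.

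Islands were concentrated away from the chromosome ends and were commonest where H3K4me3 was sparse. Between 25 and 75% of the span of the chromosome lay 70.5% of the islands (613) and 35.8% of the other regions (8907). This was so on all 12 chromosomes. The outer 1 Mb of the chromosomes held 26 islands (2.99%) and 2336 other regions (9.40%). Within 500 kb on either side, the density of H3K4me3 regions was 38.0 per Mb around the median island and 93.0 per Mb around the median other region. These densities follow in part from the rule, since an island cannot have close neighbours. Divided into 10 equal parts, the chromosomes had the highest share of isolated regions in the part between 40 and 50% of the span, where 149 islands made up 11.5% of the regions. The lowest share, 0.599%, was in the last part, with 24 islands. Pooled over the chromosomes, the distribution was lopsided. In the part numbered first, up to 50% of the span, lay 545 islands (62.7%), against 39.9% of the other regions. By median place along the span, chromosomes 3, 6 and 11 went the other way. There the median island lay at 54.9, 50.9 and 45.8% of the span, and the median other region at 46.4, 42.0 and 40.1%. On chromosome 11 the median island thus still lay before 50% of the span.

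**Figure D1:**
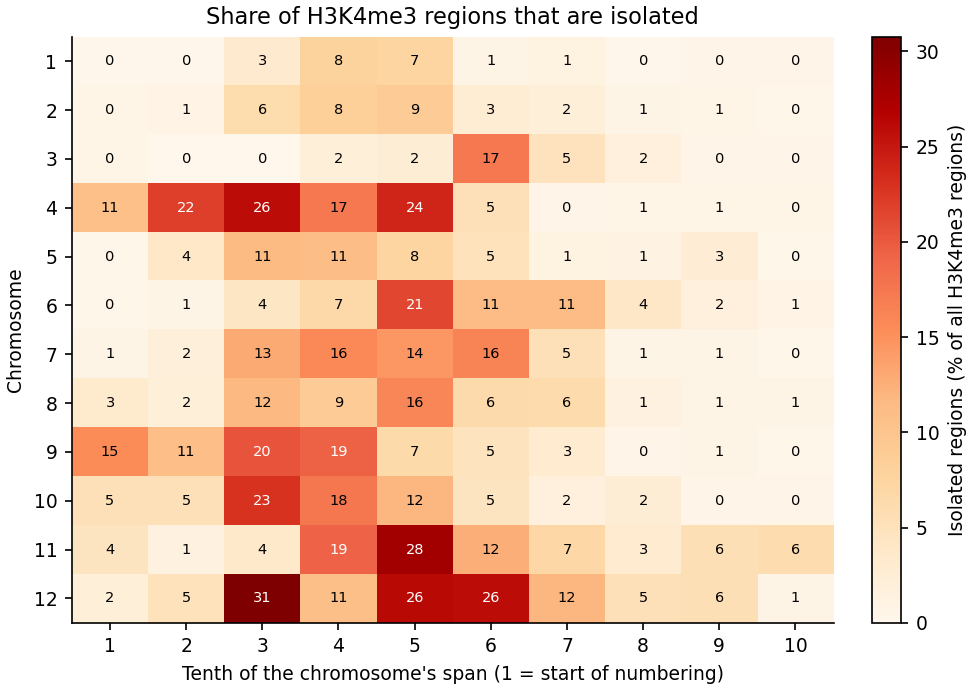
Share of H3K4me3 regions that are isolated islands (%, printed in each cell and shown by colour), by chromosome (rows) and by 10 equal parts of the chromosome's span from the start of its numbering (columns). The highest cell is the third part of chromosome 12 with 30.8%. Chromosomes 4 and 9 have 10.8 and 15.4% in the first part, and the last part of each has under 1%.

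The chromosomes differed in how many islands they held. Chromosome 12 had 95 islands, 7.62% of its regions (95% Wilson interval 6.28 to 9.23%), and chromosome 11 had 85, or 6.69% (5.44 to 8.20%). Chromosome 1, the longest, had 51 islands, or 1.38% (1.05 to 1.81%), and chromosome 3 had 57, or 1.69% (1.31 to 2.19%). The largest number, 98, lay on chromosome 4, where they made up 4.50% of the regions. The density of all H3K4me3 regions differed the other way. Chromosomes 11 and 12 had 43.8 and 45.3 H3K4me3 regions per Mb, and chromosomes 3 and 1 had 92.5 and 85.6. This opposition follows in part from the rule, since fewer regions per Mb leave wider gaps. Wilson intervals here and below cover counting error only, and neighbouring regions are not independent.

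Islands were often next to other islands. Counted along the chromosome, 398 islands had no island as the next region on either side, and 471 (54.2%) belonged to 175 runs of 2 or more consecutive islands. Of these runs, 66 held at least 3 islands and 15 at least 5. The runs follow in part from the rule, since a region next to an island also has more than 25 kb free on that side. It can thus only be 1 of the 869 islands or of the 5082 regions free on 1 side. Whether islands adjoin more often than this spacing implies was not tested. The longest held 9 islands over 890.7 kb of chromosome 11, from 11784317 to 12675027, with widths of 239 to 713 bp. A run of 8 islands covered 1413 kb of chromosome 4 from 2777527, and runs of 8 covered 940.3 kb of chromosome 12 from 7748767 and 713.3 kb of the same chromosome from 11420092. The next run held 7 islands over 457.5 kb of chromosome 3 from 19604555. In the run of 9, H3K27me3 replicates 1 and 2 had peaks on 2 and 1 islands. In the run on chromosome 4 they had peaks on 5 and 3 islands, in the first run of chromosome 12 on 2 and 1, and in its second run and the run on chromosome 3 on none. Over all islands the shares were 31.2 and 21.5%, and with so few islands in each run no difference between runs is read from these counts.

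In width and strength the islands were close to the other regions. The median width was 394 bp in islands (10th to 90th percentile 221 to 722 bp) and 420 bp in the other regions (226 to 803 bp). Each list showed the same direction: the peaks under the islands had medians of 572 and 424 bp in replicates 1 and 2, against 660 and 448 bp under the other regions. Among islands 28 (3.22%) were at least 1000 bp wide and none reached 2000 bp, against 1033 (4.16%) and 11 of the other regions. Islands had the smaller median width on 8 of the 12 chromosomes. The difference in median width was −26 bp over the regions and −88 and −24 bp over the peaks of replicates 1 and 2. Fold enrichment, the authors' own value for each peak, was compared as a percentile within its list, and the 2 lists did not go the same way. The median percentile of fold was 52.7 in islands and 58.0 in other regions in replicate 1, and 51.8 and 51.3 in replicate 2.

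The widest island, on chromosome 2 at 14681690 to 14683639, measured 1950 bp, and it was also the ninth most isolated, 172.6 kb from its nearest neighbour. Its peaks stood at percentiles 89.97 and 86.1 of fold, and the nearest H3K27me3 peaks lay 61.4 and 61.5 kb away in replicates 1 and 2. The next widest lay on chromosome 3 at 28512874 to 28514583 (1710 bp) and 18053404 to 18055052 (1649 bp), and on chromosome 2 at 12464423 to 12465999 (1577 bp). The 10 widest islands measured 1203 to 1950 bp, and their ranks ranged from percentile 16.2 to 96.0 in replicate 1. Of the 10, 1 overlapped an H3K27me3 peak, in replicate 1 alone, on chromosome 6 at 19620230 to 19621519. Over all 28 islands of at least 1000 bp the shares were 28.6 and 17.9% in H3K27me3 replicates 1 and 2, against 22.7 and 14.2% over all H3K4me3 regions. The H3K4me3 peaks of the overlapped island were also the weakest of the 10, at percentiles 16.2 and 11.2.

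Islands overlapped H3K27me3 peaks more often than the other H3K4me3 regions did, in both H3K27me3 libraries. An H3K27me3 replicate 1 peak overlapped 31.2% of islands (271 of 869, 95% Wilson interval 28.2 to 34.3%) and 22.4% of the other regions (5558 of 24846, 21.9 to 22.9%). The share over all H3K4me3 regions was 22.7%. For replicate 2 the shares were 21.5% of islands (187 of 869, 18.9 to 24.4%) and 13.9% of the other regions (3458, 13.5 to 14.4%), with 14.2% over all. The difference was 8.82 percentage points (95% Newcombe interval 5.78 to 12.01) in replicate 1 and 7.60 points (4.96 to 10.5) in replicate 2, or 8.21 ± 0.859 points (mean ± SD, n = 2 libraries). An exact sign-flip permutation test over the 2 libraries gave p = 0.5 (two-sided), the smallest value that 2 libraries allow. Regions are not replicates of the experiment, so the intervals describe these lists.

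The lists were nested at the islands. All 187 islands that overlapped a replicate 2 peak also overlapped a replicate 1 peak, 84 (9.67%) overlapped a replicate 1 peak alone, and 598 (68.8%) overlapped neither. Of the other regions 13.7% overlapped both, 8.68% replicate 1 alone, 0.225% (56 regions) replicate 2 alone and 77.4% neither. The difference lay in the overlap with both, 21.5% of islands against 13.7% of other regions. For replicate 1 alone it was 0.989 points (Newcombe interval −0.837 to 3.16), which is within counting error.

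Where an island was marked by H3K27me3 it was mostly marked throughout, and this was also so in the other regions. Replicate 1 peaks covered the whole of 221 of the 271 overlapped islands and 4198 of the 5558 overlapped other regions. For replicate 2 it was 123 of 187 and 2200 of 3458. Out of all islands and all other regions, marked or not, the wholly covered shares were 25.4 and 16.9% in replicate 1. In replicate 2 they were 14.2 and 8.85%. Of all island bases 27.7% lay in replicate 1 peaks and 17.8% in replicate 2 peaks, against 19.0 and 10.7% of the bases of the other regions. The H3K27me3 peaks on islands were of about the length of those on other regions. Their median width was 1200 bp in replicate 1 and 975 bp in replicate 2, against 1178 bp and 1045 bp for those on other regions. Peaks of 5 kb or more accounted for 19 of the 271 overlapped islands in replicate 1 (7.01%) and 14 of 187 in replicate 2 (7.49%), and for 8.55 and 8.47% of the other overlapped regions. Ranked by fold within their own list, the replicate 1 peaks on islands had a median percentile of 69.2, against 55.8 on other regions. In replicate 2 the medians were 43.6 and 40.6, so the 2 libraries differed in the size of this gap. The peaks on regions free on 1 side only had medians of 66.9 in replicate 1 and 49.6 in replicate 2, the second above that of islands.

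The 10 islands with the most bases under H3K27me3 peaks of both lists measured 808 to 1170 bp, a length that the choice by covered bases favours. The first, on chromosome 3 at 235516 to 236680 (1165 bp), was wholly inside an H3K27me3 peak of 1901 bp in replicate 1 and of 5604 bp in replicate 2. Its H3K4me3 peaks stood at percentiles 30.96 and 25.8. The second lay on chromosome 9 at 1504133 to 1505248, with 1062 of 1116 bp covered in both lists. Its H3K4me3 peaks ranked at percentiles 49.3 and 90.1, so the 2 libraries ranked it differently. The third lay on chromosome 6 at 25784765 to 25785707 (943 bp, wholly covered, H3K27me3 peaks of 4013 and 1912 bp). The island on chromosome 2 at 14508231 to 14509086 combined full cover by H3K27me3 peaks of 6188 and 5997 bp with a nearest H3K4me3 neighbour 146.1 kb away. Its neighbour 172.6 kb along is the widest island, which had no H3K27me3 peak within 61.4 kb. Of these 10 islands, 7 were wholly covered in both lists and the H3K4me3 ranks ran from percentile 13.1 to 53.2 in replicate 1.

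H3K27me3 fell mainly on the weaker islands. The 187 islands overlapped in both lists had median H3K4me3 ranks at percentiles 23.0 and 33.1 of replicates 1 and 2 and a median width of 339 bp. The 598 islands without overlap had ranks at percentiles 64.6 and 59.1 and a median width of 411 bp. In H3K4me3 replicate 1, 52.4% of the islands overlapped in both lists stood below the 25th percentile, against 8.03% of those overlapped in neither. The other regions had the same pattern, with median replicate 1 ranks of 28.1 and 66.3. Islands and other regions were also compared at like strength. In the lowest of 4 classes of mean fold rank, replicate 1 H3K27me3 peaks overlapped 61.7% of 253 islands (55.5 to 67.4%) and 46.1% of 6176 other regions (44.9 to 47.4%). Replicate 2 peaks overlapped 43.9% (37.9 to 50.03%) and 29.4% (28.2 to 30.5%). In the highest class the shares were 5.91% of 203 islands and 3.73% of 6226 other regions in replicate 1, and 4.43 and 2.12% in replicate 2. Weighted over the 4 classes, the difference was 6.87 ± 0.459 points (SD, n = 2 libraries). In the 3 upper classes the intervals of islands and other regions overlapped in both replicates, although each share was higher in islands.

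**Figure D2:**
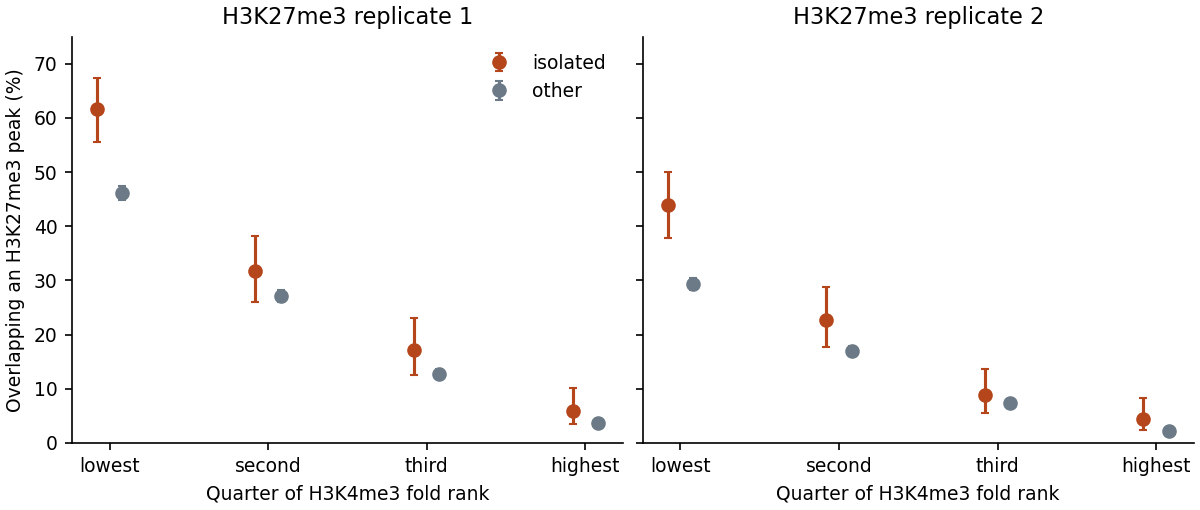
Share of islands (orange, left of each pair) and of other H3K4me3 regions (grey) that overlap an H3K27me3 peak (%, with 95% Wilson intervals), in 4 classes of mean H3K4me3 fold rank, for each H3K27me3 list. The shares fall steeply with rank in both kinds of region. In percentage points the gap between them is widest in the lowest class, where both shares are highest, 61.7 against 46.1% in replicate 1.

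Islands exceeded the other regions in every width class. In the 150 islands under 250 bp, 42.0% overlapped a replicate 1 peak (34.4 to 50%), against 28.1% of the other regions of that width. The shares were 29.3 and 23.0% from 250 bp to under 500 bp and 28.3 and 19.0% from 500 bp to under 1000 bp. In replicate 2 the shares in these 3 classes were 27.3, 20.1 and 20.9% of islands and 19.0, 14.4 and 11.3% of other regions. Islands of 1000 bp and over were too few (28) to tell apart, with 28.6% (15.3 to 47.1%) against 20.1% in replicate 1. Weighted over the width classes, the difference was 7.91 ± 0.832 points.

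Islands had the higher share of overlap on all 12 chromosomes in both H3K27me3 lists. With only 51 to 98 islands on each, counting error is large and no chromosome was tested on its own. Differences in size between chromosomes are given as descriptions only. The difference was greatest on chromosome 7 in replicate 1, with 39.2% of 79 islands against 23.0% of other regions, and on chromosome 10 in replicate 2, with 28.8% of 59 islands against 17.0%. It was smallest on chromosome 12, the chromosome richest in islands, where 26.3 and 16.8% of islands overlapped replicates 1 and 2, against 24.2 and 15.9% of other regions. The values also differed along the chromosome, in parts that held 24 to 149 islands and were likewise not tested. Between 30 and 50% of the span, where 138 and 149 islands lie in successive parts, the shares of islands and other regions were within 1 percentage point of each other. Replicate 1 peaks overlapped 25.4 and 22.8% of islands in the 2 successive parts, against 26.3 and 23.4% of other regions, and replicate 2 peaks 18.1 and 13.4%, against 17.3 and 14.0%. In the first part, up to 10% of the span, the shares were 37.9% of 58 islands and 23.5% of other regions in replicate 1 and 31.0 and 15.2% in replicate 2. In the last part, 13 of 24 islands (54.2%) overlapped replicate 1, against 21.7% of other regions, and 29.2 and 14.1% overlapped replicate 2. Compared only with regions of the same 1 Mb of chromosome, islands exceeded the others by 6.35 ± 0.284 points (863 islands with other regions in their bin).

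Although islands carried H3K27me3 more often, they had fewer H3K27me3 peaks around them. A replicate 1 peak lay on or within 25 kb of 66.6% of islands and 78.6% of other regions, with 78.2% over all H3K4me3 regions. For replicate 2 the shares were 63.1 and 71.5%, with 71.2% over all. The difference was −11.98 points (Newcombe interval −15.2 to −8.88) and −8.41 points (−11.7 to −5.22), or −10.2 ± 2.52 points (SD, n = 2 libraries, exact sign-flip permutation p = 0.5, the smallest possible). The share was lower in islands on all 12 chromosomes in replicate 1 and on 11 in replicate 2, where chromosome 3 had 70.2% of islands and 67.5% of other regions. With islands taken from H3K4me3 replicate 1 alone, without replicate 2, the mean difference was −15.8 points (694 islands). Without those that overlapped, 35.4% of islands and 56.2% of other regions had a replicate 1 peak within 25 kb, and 41.5 and 57.6% a replicate 2 peak. At the far end, 55 islands (6.33%) lay more than 100 kb from any replicate 1 peak, against 1.13% of other regions, and 8.40% against 1.67% for replicate 2. In both lists at once 48 islands (5.52%) and 0.7003% of other regions did. The farthest island was 519827 bp from a replicate 1 peak.

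The rule itself limits what can lie near an island, since an H3K27me3 peak on another H3K4me3 region can hardly fall within 25 kb of one. Of the H3K27me3 peaks, 74.5% in replicate 1 and 83.3% in replicate 2 touched no H3K4me3 region. With these alone, 60.8% of islands and 63.9% of other regions had one within 25 kb in replicate 1, and 59.95 and 63.6% in replicate 2. The difference was then −3.43 ± 0.365 points. Leaving out peaks on H3K4me3 regions takes away more around other regions than around islands, so the rule bears on this value as well. Within the same 1 Mb of chromosome and with all H3K27me3 peaks it was −3.44 ± 2.61 points, with an SD not far below the difference.

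The median distance to an H3K27me3 peak was close in islands and other regions. It was 8174 bp in islands and 8333 bp in other regions for replicate 1, and 11434 and 11745 bp for replicate 2, a difference of −235 ± 107 bp (SD, n = 2 libraries, exact sign-flip permutation p = 0.5, the smallest possible). The upper part of the distribution differed more. At the 75th percentile the distance was 36368 bp in islands and 21752 bp in other regions for replicate 1, and 41415 and 28279 bp for replicate 2. Among regions that overlapped no peak the median distance was 23735 bp in islands and 13044 bp in other regions for replicate 1, and 21454 and 15214 bp for replicate 2. The sign of the overall median difference turned in 9 of 12 alternative settings, so no direction is given for it.

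**Figure D3:**
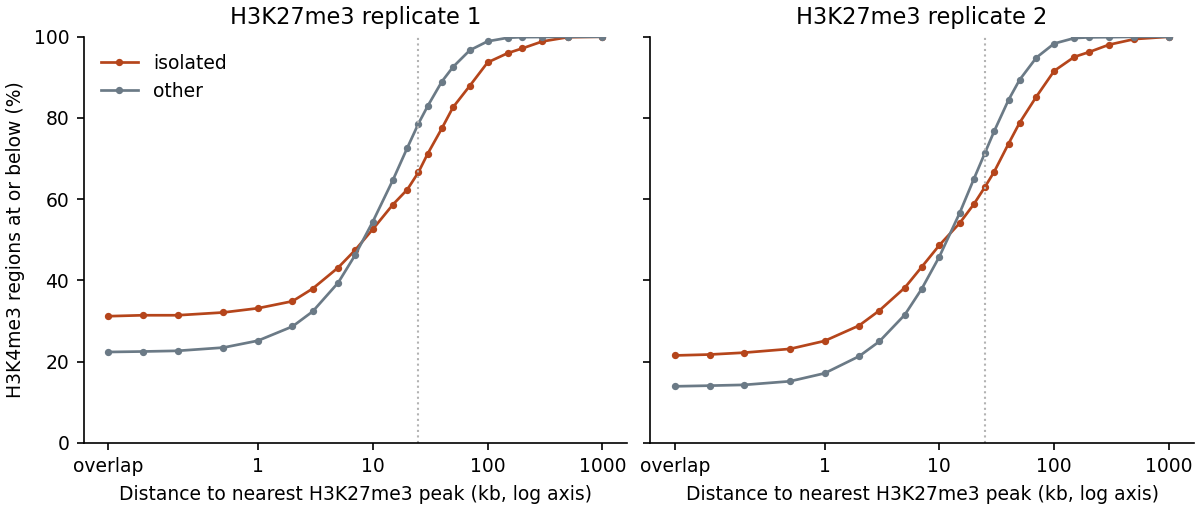
Cumulative share of islands (orange) and other H3K4me3 regions (grey), in %, by distance to the nearest peak of each H3K27me3 list (kb, log axis; the leftmost point is overlap, the dotted line 25 kb). The island curve starts higher (31.2 against 22.4% in replicate 1), crosses the other between 7 and 15 kb and runs below it beyond.

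Away from the edge of an island H3K27me3 dropped within a few kb to a level below that around other regions. In the first 500 bp beyond the edge, 17.5% of positions at islands and 11.8% at other regions were in a replicate 1 peak, and 10.4 and 7.01% in a replicate 2 peak. From 10 to 25 kb the values were 5.52 and 7.66% in replicate 1 and 5.08 and 6.21% in replicate 2, and from 25 to 50 kb 5.96 and 8.15% and 4.98 and 6.72%. Replicate 1 peaks cover 6.88% and replicate 2 peaks 5.68% of the chromosome spans, so beyond 10 kb islands lay below and other regions above the average. Over the whole 25 kb on either side, mean coverage was 6.31% around islands and 7.57% around other regions in replicate 1, and 5.55 and 6.04% in replicate 2. The difference of −0.875 ± 0.545 points (exact sign-flip permutation p = 0.5) changed sign within 1 Mb bins, to 0.866 points. It also did when only H3K27me3 peaks off H3K4me3 regions were counted, to 0.998 points. That count leaves out more peaks around other regions than around islands, so its sign follows in part from the rule.

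**Figure D4:**
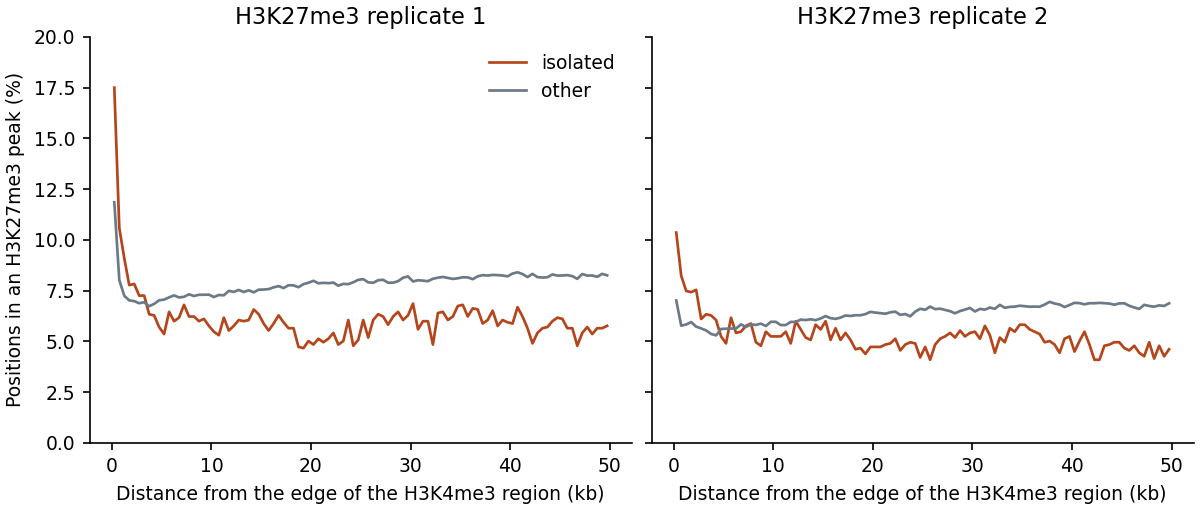
Share of positions in an H3K27me3 peak (%) by distance from the edge of an H3K4me3 region (kb, both sides pooled, in steps of 500 bp), for islands (orange) and other H3K4me3 regions (grey) in each H3K27me3 list. The island line begins higher and falls below the other within about 5 kb in replicate 1 and 10 kb in replicate 2.

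The H3K27me3 peaks on islands more often had no other H3K27me3 peak near them. Of the 271 islands under a replicate 1 peak, 50 (18.5%) had no other replicate 1 peak within 25 kb, against 8.65% of the 5558 other overlapped regions. In replicate 2 it was 26 of 187 (13.9%), against 8.65% of 3458. Islands free of the mark had empty surroundings more often. No replicate 1 peak lay within 25 kb of 290 of the 598 without overlap (48.5%), against 27.6% of other regions without overlap, and no replicate 2 peak within 25 kb of 47.1 and 33.1%. Both differences follow in part from the rule, since these counts include H3K27me3 peaks on other H3K4me3 regions. Peaks off H3K4me3 regions covered more of the 25 kb on either side of islands than of other regions. The means were 5.23 and 4.14% in replicate 1 and 4.92 and 4.02% in replicate 2. With all peaks they were 6.31 and 7.57% in replicate 1 and 5.55 and 6.04% in replicate 2. This order too follows in part from the rule. Leaving out peaks on H3K4me3 regions takes away more around regions that have H3K4me3 neighbours.

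Seen along the whole range of spacing, the overlap with H3K27me3 did not rise steadily. Of H3K4me3 regions with a neighbour up to 1 kb away, 25.7% overlapped a replicate 1 peak. The share was 21.2% at 1 to 5 kb, 18.6% at 5 to 10 kb and 25.3% at 10 to 25 kb. Among islands it was 32.1% of 660 at 25 to 50 kb (28.7 to 35.8%), 28.7% of 167 at 50 to 100 kb (22.4 to 36.0%) and 26.2% of 42 beyond 100 kb (15.3 to 41.1%). In replicate 2 the shares over these 7 classes were 14.3, 13.3, 11.98, 18.3, 22.9, 16.8 and 19.0%. The intervals of the 3 island classes overlap one another, so no change with distance was detectable among islands. The share with a peak within 25 kb was lower in each further island class, 69.4, 59.9 and 50% in replicate 1 and 66.1, 54.5 and 50% in replicate 2. The intervals of the 2 farther classes overlapped, so the last step is within counting error. They were 52.3 to 67.0% and 35.5 to 64.5% in replicate 1, and 46.9 to 61.9% and 35.5 to 64.5% in replicate 2. In overlap, regions with more than 25 kb free on 1 side only lay between islands and regions with neighbours on both sides. They overlapped replicate 1 and 2 peaks in 27.5 and 18.8%, and regions with neighbours on both sides in 21.1 and 12.7%. Islands exceeded those free on 1 side by 3.21 ± 0.685 points (SD, n = 2 libraries). The Wilson intervals of these 2 kinds of region overlapped in both replicates. For islands and regions free on 1 side they were 28.2 to 34.3% and 26.3 to 28.7% in replicate 1. In replicate 2 they were 18.9 to 24.4% and 17.7 to 19.9%. The share within 25 kb did not follow that order in replicate 2, with 63.1% of islands, 72.4% of regions free on 1 side and 71.2% of regions with neighbours on both sides.

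**Figure D5:**
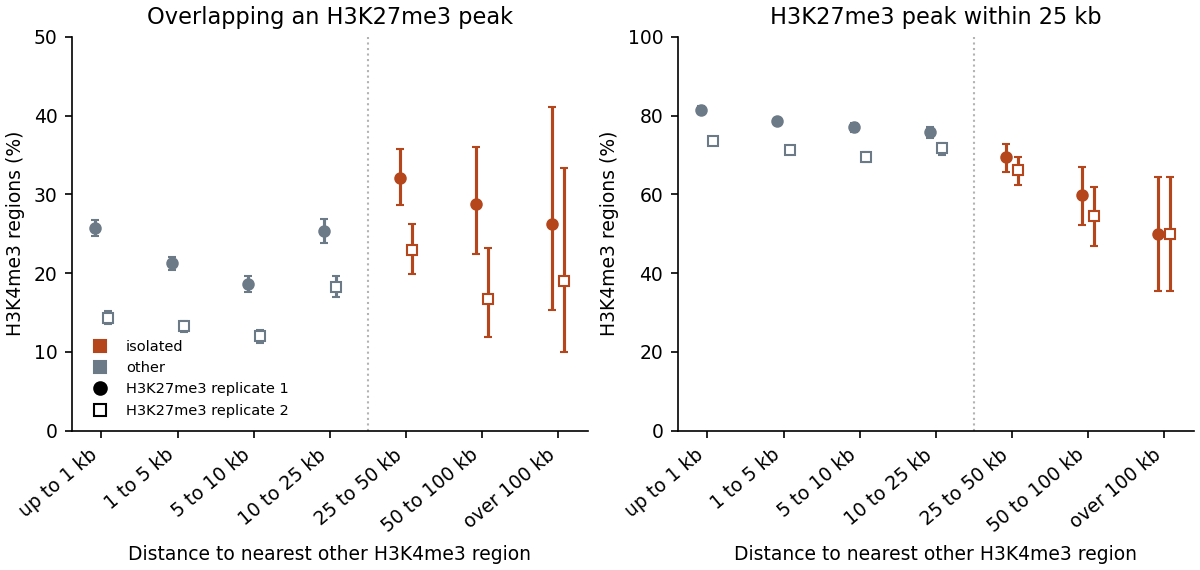
Share of H3K4me3 regions that overlap an H3K27me3 peak (left) or have one within 25 kb (right), in % with 95% Wilson intervals, by distance to the nearest other H3K4me3 region (7 classes), for H3K27me3 replicate 1 (filled circles) and replicate 2 (open squares). Islands, in orange, lie right of the dotted line. Overlap is highest at 25 to 50 kb, whereas the share within 25 kb falls to 50% beyond 100 kb.

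Among the 10 islands with the longest distance to a neighbour, 1 overlapped a replicate 1 peak and none a replicate 2 peak, counts too small to set apart from the 22.7 and 14.2% over all H3K4me3 regions. Of all 42 islands beyond 100 kb, 11 and 8 overlapped replicates 1 and 2. The overlapped island, on chromosome 12 at 20375206 to 20375745, lay under a replicate 1 peak of 1143 bp, and the nearest replicate 2 peak lay 1248 bp away. The first lay 11.2 and 17.3 kb from peaks of replicates 1 and 2, and the second 20.9 and 21.0 kb. The third and the last of the 10, both on chromosome 5, were 202.6 and 232.0 kb from any replicate 1 peak and 202.3 and 234.7 kb from any replicate 2 peak. The eighth, on chromosome 7 at 14995962 to 14996161, had peaks 2.93 and 0.937 kb away.

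The 432 islands that had no further H3K4me3 peak of either list within 25 kb showed both differences. Replicate 1 peaks overlapped 29.4% of them and 22.6% of all remaining regions, and replicate 2 peaks 20.1 and 14.1%. Replicate 1 peaks lay within 25 kb of 56.5 and 78.6%, and replicate 2 peaks within 25 kb of 54.6 and 71.5%. When the 4 lists were trimmed to peaks whose −log10 q reached 5, 1191 islands were found. Of these 13.5% overlapped a replicate 1 and 5.79% a replicate 2 peak, against 8.26 and 3.56% of 17757 other regions. The difference was then 3.75 ± 2.14 points (SD, n = 2 libraries), in points smaller than with all peaks and less alike in the 2 libraries. The shares of other regions were lower too, 8.26 and 3.56% against 22.4 and 13.9% with all peaks. A smaller difference in points is therefore not read as a weaker excess relative to the other regions. A replicate 1 peak lay within 25 kb of 37.95% of these islands and 42.4% of other regions, and a replicate 2 peak within 25 kb of 26.4 and 26.9%. That difference was −2.47 ± 2.84 points, with an SD larger than the difference.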

How the data were processed

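Per the submitters' processing notes, fastp, Bowtie2, Picard, SAMtools, deepTools and MACS2 were used. Versions, roles and settings of these tools are not stated there, and no source used here gives the genome build. For each peak the 4 deposited lists hold, as the authors made them, a fold enrichment (a linear ratio), −log10 p, −log10 q and a score. The H3K4me3 lists are narrow-peak files, which also give a summit offset, and the H3K27me3 lists are broad-peak files. Each list was deposited under 1 library. The smallest −log10 q was about 2.01 in both H3K4me3 lists and 1.02 and 1.01 in H3K27me3 replicates 1 and 2, so the H3K27me3 lists reach weaker peaks. Tags in the peak names (merge, uniq and subsample) differ between lists, so the libraries may have been pooled, filtered or subsampled differently before calling. Whether the 2 lists of a mark are fully independent is therefore not known.

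H3K4me3 regions are bases covered by both H3K4me3 lists. Islands have more than 25 kb free on both sides, and H3K27me3 overlap means at least 1 bp. Chromosome spans run to the last peak end over the 4 lists. Fold was ranked within each list only. Shares have 95% Wilson intervals and differences Newcombe intervals, covering counting error only. Differences were computed per H3K27me3 library and given as mean and SD over 2 libraries. Analyses used Python 3.11.15, numpy 2.4.6, scipy 1.17.1 and matplotlib 3.10.9. The interval code was tested on simulated data: 235 simulated regions were compared base by base with 0 mismatches, and 59 of 59 planted overlaps were recovered.

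Regions named are the 10 most isolated, the 10 widest, the 10 with the most bases under both H3K27me3 lists, and the 3 on each side of the threshold. Runs of islands were named after their values were seen. The members and lists were chosen with earlier results of these data known. Alternatives changed the isolation distance, the q threshold, the overlap, the comparison regions, strata and libraries.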

Additional observations from a re-analysis of the deposited data

How the results depend on the processing

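The higher overlap of islands with H3K27me3 kept its direction in all 16 alternatives, and the lower share within 25 kb of an H3K27me3 peak in all 13. The overlap difference (8.21 points) was 3.75 with peaks trimmed to a −log10 q of 5 or more, 5.17 and 4.34 with isolation distances of 10 and 50 kb, 6.46 with no peak of either list near, 6.35 within 1 Mb bins and 7.14 within chromosomes. In alternatives chosen after seeing the data it was 3.21 against regions free on 1 side, 6.87 within fold classes and 5.85 within 10 equal parts of each chromosome. Leaving out 1 library gave 7.60 to 9.33.

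The share within 25 kb was itself chosen after seeing the data. Its difference (−10.2 points) was −2.47 ± 2.84 (SD, n = 2 libraries) with the stricter q, −3.40 and −19.1 with 10 and 50 kb, −19.5 with no peak of either list near, −3.44 within 1 Mb bins and −3.43 with H3K27me3 peaks off H3K4me3 regions. Leaving out 1 library gave −15.8 to −8.41, the widest without H3K4me3 replicate 2.

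The difference in median distance (−235 bp) turned to 12052 bp with the stricter q, 487 and 8558 bp with 10 and 50 kb, 6356 bp with no peak of either list near, 6582 bp within 1 Mb bins, 881 bp within chromosomes, 57.3 bp within width classes and 358 bp against regions with a neighbour within 5 kb. Leaving out 1 library gave −583 to 2396 bp, the highest without H3K4me3 replicate 2. The difference in flank coverage (−0.875 points) was −0.319 with the stricter q, −2.80 with 50 kb and −2.38 with no peak of either list near. It turned to 0.584 with 10 kb, 0.866 within 1 Mb bins and 0.998 with H3K27me3 peaks off H3K4me3 regions, the last chosen after seeing the data. Leaving out 1 library gave −2.16 to −0.490, the lowest without H3K4me3 replicate 2.

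The number of islands was 4159 and 209 with 10 and 50 kb and 432 with no peak of either list near. In the same order the excess of islands between 25 and 75% of the span (34.7 points) was 20.2, 42.3 and 38.9, and 29.4 with the stricter q. The fold rank difference (−2.37 percentile points) turned to 0.00041 with 10 kb and 0.686 with no peak of either list near, and leaving out 1 library gave −3.55 to 0.553, the highest without H3K4me3 replicate 1. The width difference (−26 bp) turned to 1 bp with 10 kb. The cause of these changes was not tested.

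No paired analysis was possible because no result sets one group of samples against another, so replicate numbers had nothing to pair. Each difference was taken between regions within 1 library. The exact test over 2 libraries cannot go below p = 0.5, read depth is unknown, and a weak mark without a peak counts as absent.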
